A study of Mus musculus with 12 samples.

Results

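Genes for matrix proteases, their inhibitors and collagen crosslinkers were followed through the conversion of mouse fibroblasts into induced pluripotent stem cells (iPSC). Members were taken by symbol: every matrix metalloproteinase (Mmp), tissue inhibitor of metalloproteinases (Timp), ADAM and ADAMTS protease and lysyl oxidase (Lox and the Loxl genes), 76 of the 37583 genes in each deposited table. RNA was sequenced from 12 libraries in 6 groups of 2: mouse embryonic fibroblasts (MEF) grown in MEF medium, sorted cells from day 3 and day 6 of reprogramming in ES medium with dox and AA, and iPSC grown in ES medium. The sorted cells thus differ from MEF in medium, dox and AA, and time at once, which comparisons with MEF cannot tell apart. All cells carried the strain label 129SV/Jae/C57BL6J, and the MEF and iPSC titles also read 3/4, which the labels do not define. At day 3 the groups called d3_Eff and d3_Ineff were the SSEA1+CD73+Sca1- and SSEA1+CD73-Sca1+ cells. At day 6 d6_Eff and d6_Ineff were the SSEA1+EpCAM+Sca1- and SSEA1+EpCAM-Sca1+ cells. The sorted cells were thus chosen by surface proteins, the day 3 and day 6 gates use different proteins, and the labels do not say whether duplicates came from separate cultures, so p-values measure only the spread between these libraries.

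Metalloproteinases cut collagens, proteoglycans and other matrix proteins, and most are made as inactive precursors that other proteases activate. TIMPs bind and block their active sites, while TIMP2 also helps membrane-bound MMP14 to activate pro-MMP2 at the fibroblast surface. ADAM proteases release the outer parts of membrane proteins, ADAMTS proteases are secreted and trim procollagens or proteoglycans, and lysyl oxidases crosslink collagen and elastin.

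Most of the members tested had their highest mean in the starting fibroblasts. Of the 76 members, 52 passed the filter on low counts; the others are accounted for in the closing section. Of these 52, 41 differed among the 6 groups at an adjusted p under 0.05 (edgeR quasi-likelihood test, Benjamini-Hochberg over 16240 genes), where 59.5% of all tested genes did. The group with the highest mean was MEF for 32 members, d3_Ineff for 3, d3_Eff for 0, d6_Ineff for 6, d6_Eff for 3 and iPSC for 8. These counts take in members with few reads, such as Mmp10 and Adam33, with highest means of 0.604 and 0.929 CPM in MEF. The share of all genes with their highest mean in MEF was not counted. Levels below are in CPM, counts scaled to library size, after edgeR's TMM scaling, given for replicate 1 and then replicate 2. Summed over the members, these levels were 12504 and 9919 CPM in MEF, 1492 and 1331 CPM in d3_Eff, 1979 and 1804 CPM in d3_Ineff, 1016 and 1011 CPM in d6_Eff, 2155 and 2375 CPM in d6_Ineff, and 473 and 444 CPM in iPSC. The groups did not overlap in this sum, and the efficient population was the lower of the pair on both days. In bulk RNA, fewer cells of a type and less RNA per cell cannot be told apart.

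**Figure D1:**
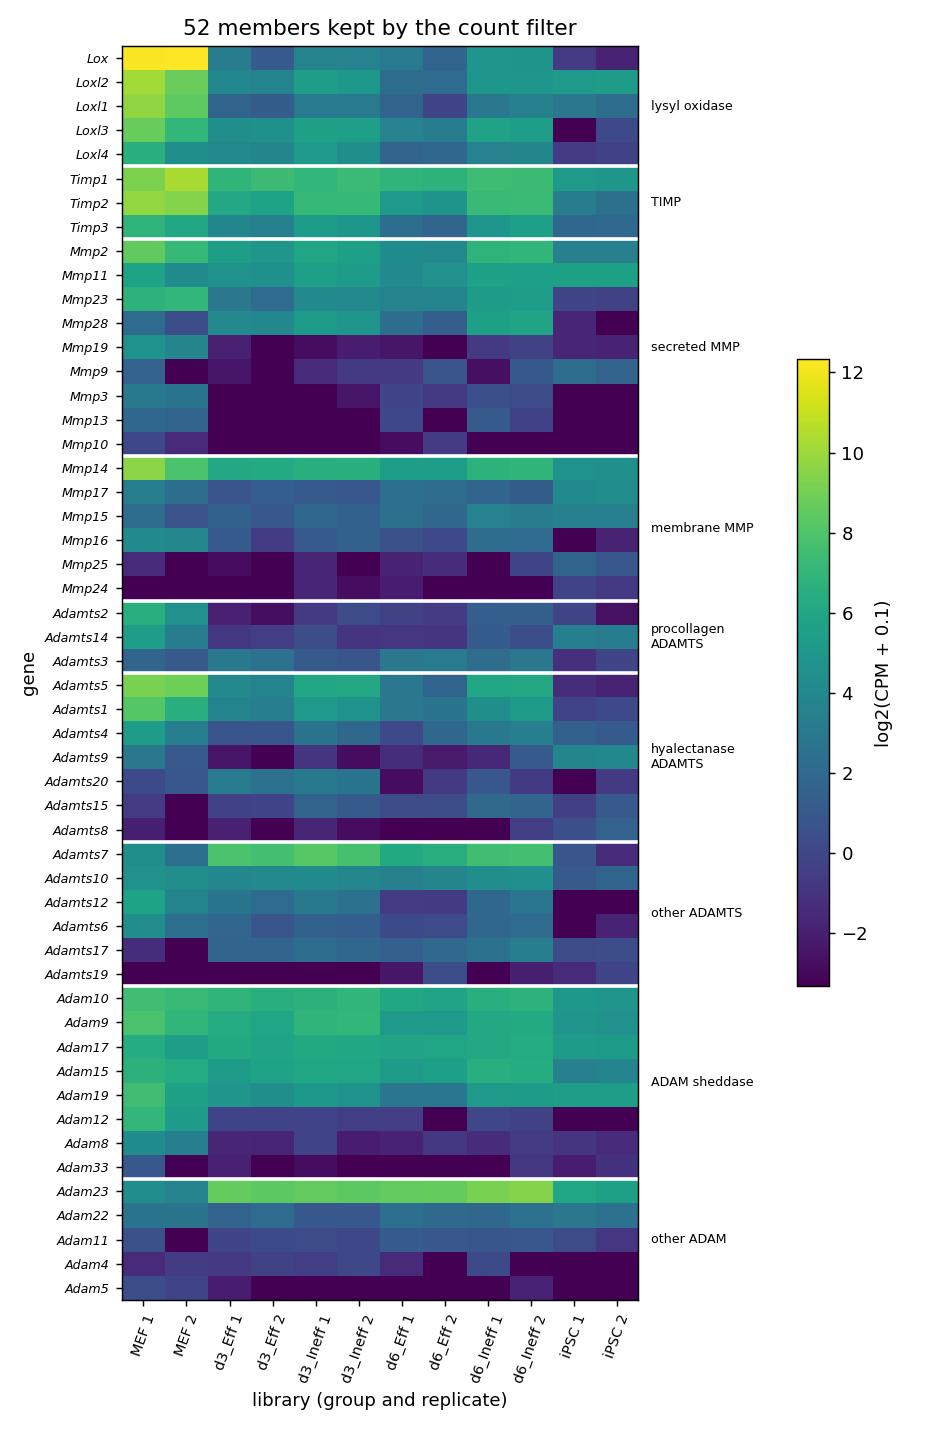
Level of each of the 52 members kept by the count filter, as log2(CPM + 0.1), in each of the 12 libraries; white lines separate the roles. The lysyl oxidase and TIMP rows other than Loxl4 are brightest in the 2 MEF libraries, while Adam23 and Adamts7 are brightest between MEF and iPSC. Loxl4 is brightest in MEF replicate 1 only.

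Library totals ran from 9284060 to 22763548 counts on genes. The second MEF library stood apart: 47.2% of its uniquely placed reads lay outside genes, against 24.1% in d6_Eff replicate 2 and 5.10 to 11.7% in the other 10. Its ratio to MEF replicate 1 changed with exon length, with a median of 2.22 for genes under 1000 bases and 0.558 for genes of 8000 bases or more. Among the 35 members at 5 CPM or more in MEF replicate 1, 32 were lower in replicate 2 and the median ratio was 0.499, against 0.870 over all genes at that level. Timp1, of 888 bases, had a ratio of 2.22, Lox 1.06, Loxl4 0.234 and Adamts7 0.231. Fibroblast markers (10 genes) summed to 16881 to 47352 CPM in MEF, 4877 to 5242 CPM in d3_Eff, 8105 to 8598 CPM in d3_Ineff, 524 to 771 CPM in d6_Eff, 5040 to 5350 CPM in d6_Ineff and 119 to 121 CPM in iPSC. Vim held most of that sum in the sorted cells, with means of 4732 CPM in d3_Eff and 7546 CPM in d3_Ineff, against 6577 CPM in MEF. Col1a1 and Col1a2 averaged 11846 and 10332 CPM in MEF, 32.0 and 138 CPM in d3_Eff, and 74.1 and 538 CPM in d3_Ineff. The sums of 10 pluripotency markers were 2.06 to 4.33 CPM in MEF, 16.6 to 19.5 CPM in d3_Eff, 8.24 to 10.5 CPM in d3_Ineff, 221 to 225 CPM in d6_Eff, 68.6 to 71.9 CPM in d6_Ineff and 8253 to 8648 CPM in iPSC. The 10 leukocyte markers stayed at 15.6 CPM or less in sum. The 8 cartilage and bone markers summed to 81.5 to 410 CPM in MEF and to 8.11 to 42.9 CPM in the sorted cells. Col2a1 averaged 193 CPM in MEF, while Sp7, Ibsp and Bglap stayed at 0.181 CPM or less in every group. The 6 skeletal muscle markers summed to 162 to 177 CPM in MEF and to 1.46 to 14.5 CPM in the sorted cells. Des and Acta1 averaged 89.9 and 76.9 CPM in MEF, while Myod1 and Myog stayed at 0.408 CPM or less. The 8 endothelial markers summed to 2.09 to 3.72 CPM in MEF, 116 to 148 CPM in d3_Eff, 154 to 161 CPM in d3_Ineff, 81.9 to 82.2 CPM in d6_Eff, 157 to 162 CPM in d6_Ineff and 67.5 to 69.3 CPM in iPSC. Tek held most of that sum in the sorted cells, with means of 71.2 to 151 CPM. Pecam1, Emcn and Vwf stayed at 1.11 CPM or less there. In d6_Ineff Kdr and Cdh5 averaged 14.5 and 6.04 CPM, against 0.534 and 0.103 CPM in MEF. Tie1 reached 4.83 CPM in d6_Ineff and Cldn5 5.87 CPM in d6_Eff, with no count in MEF. In iPSC Pecam1 averaged 50.2 CPM, Vwf 10.9 CPM and Tek 4.61 CPM. The part of any of these cell types in the results was not tested.

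**Figure D2:**
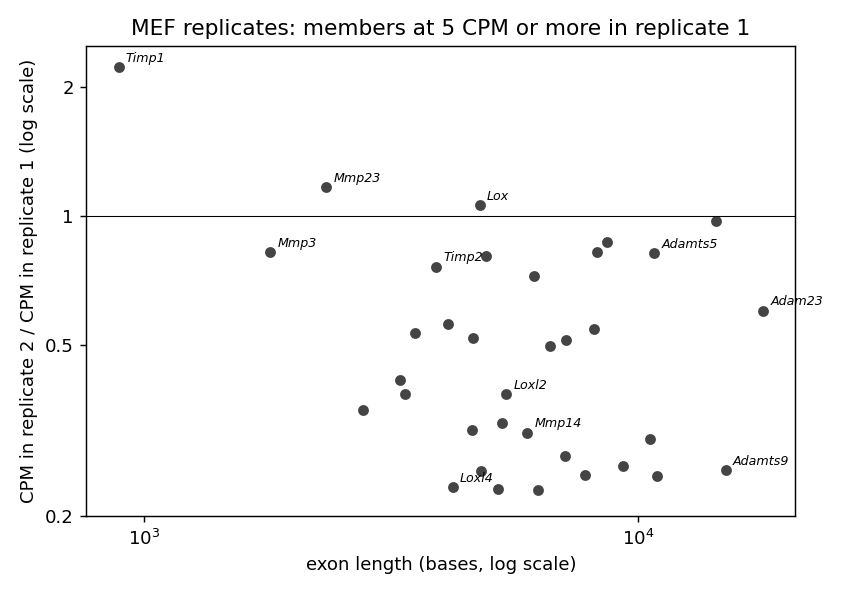
Ratio of CPM in MEF replicate 2 to MEF replicate 1 (log scale) against exon length in bases (log scale) for the 35 members at 5 CPM or more in MEF replicate 1. Only Timp1, Mmp23 and Lox lie above the line at 1.

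By day 3 all 5 lysyl oxidases had fallen in d3_Eff and 4 of 5, all but Loxl4, in d3_Ineff. Lox (ENSMUSG00000024529), the founding lysyl oxidase, had 9.63 and 2.18 CPM in d3_Eff and 12.9 and 12.2 CPM in d3_Ineff, against 4850 and 5135 CPM in MEF. It alone made up at most 1.30% of the summed member CPM in the other 10 libraries, but 38.8 and 51.8% in MEF. No d3 library came near a MEF library: the log2 fold change was -9.71 ± 0.78 (SE) for d3_Eff over MEF (adjusted p = 5.21e-06) and -8.64 ± 0.75 for d3_Ineff over MEF (adjusted p = 1.28e-05). Lox stood at 8.91 and 3.17 CPM in d6_Eff, 28.0 and 27.0 CPM in d6_Ineff and 0.602 and 0.198 CPM in iPSC. Loxl2, which crosslinks basement membrane collagen, had another course. It had 15.6 and 13.4 CPM in d3_Eff and 44.3 and 32.7 CPM in d3_Ineff, against 1140 and 439 CPM in MEF. After 4.45 and 4.35 CPM in d6_Eff and 29.8 and 29.6 CPM in d6_Ineff, it had 35.6 and 39.7 CPM in iPSC, above both d6 populations. The exons of Lox and Loxl2 overlap those of annotated genes on the other strand that have no counts of their own here. The deposited counts ignore strand, so reads of such a gene over the shared stretch cannot be told from those of the member. Where both genes of a pair were counted, reads over both may instead be among the ambiguous reads, which stayed out of the tests.

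Loxl1, which acts on elastin, had log2 fold changes of -7.74 ± 0.62 for d3_Eff over MEF and -6.15 ± 0.57 for d3_Ineff over MEF. Those of Loxl3 were -3.59 ± 0.64 in d3_Eff and -2.52 ± 0.61 in d3_Ineff. Loxl4 fell by 1.95 ± 0.51 in d3_Eff relative to MEF (adjusted p = 0.0115), and the difference for d3_Ineff over MEF was -1.06 ± 0.50 (adjusted p = 0.138). Without MEF replicate 1 or without d3_Eff replicate 2 the adjusted p of the Loxl4 fall was 0.205 and 0.0863, and without d3_Ineff replicate 1 or 2 that of the Loxl3 fall in d3_Ineff was 0.052 and 0.0663. Loxl3 overlaps Htra2 on the other strand, whose means were 58.1 CPM in d3_Eff, 65.4 CPM in d3_Ineff and 36.8 CPM in MEF.

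**Figure D3:**
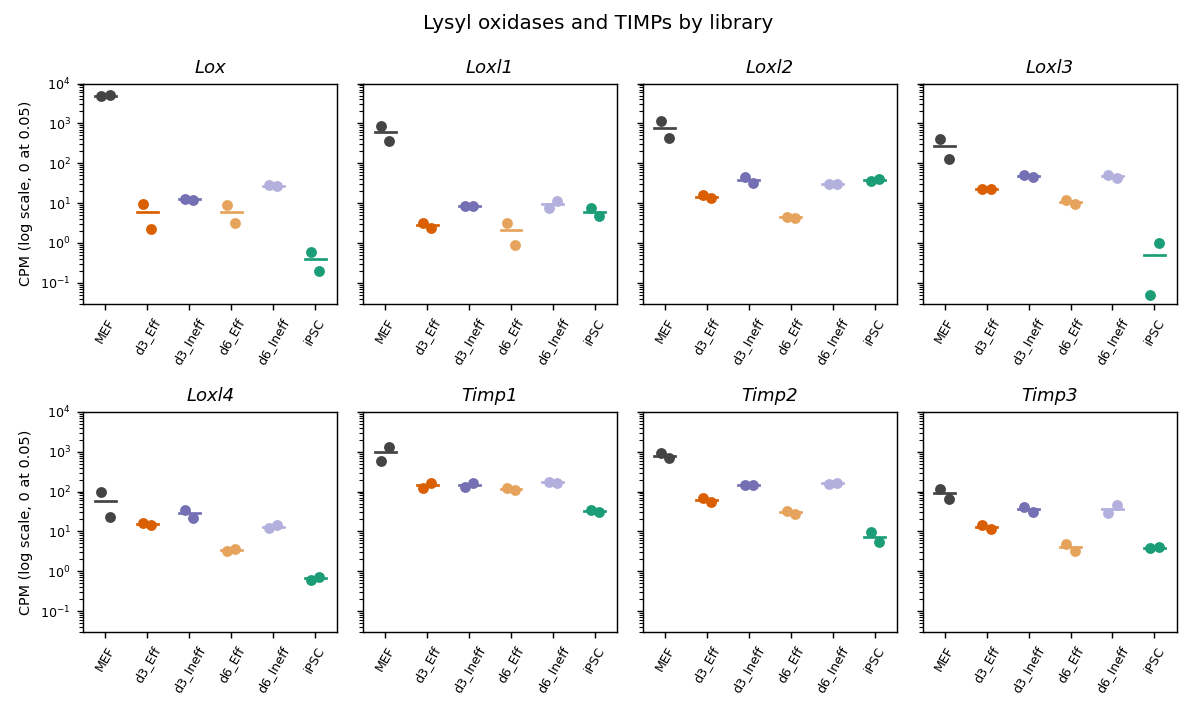
Level of the 5 lysyl oxidases and of the 3 TIMPs kept by the filter in each library (points, CPM on a log scale, a library at 0 drawn at 0.05) with the mean of each group (lines). Lox lies at 28.0 CPM or less in the other 10 libraries and at 4850 and 5135 CPM in MEF, while Loxl2 is higher in iPSC than in d6_Eff.

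The 3 tested inhibitors fell by day 3 in both sorted populations. Timp1 (ENSMUSG00000001131), a secreted broad inhibitor, had 122 and 166 CPM in d3_Eff and 132 and 163 CPM in d3_Ineff, against 595 and 1322 CPM in MEF. The log2 fold changes were -2.74 ± 0.33 for d3_Eff over MEF and -2.70 ± 0.33 for d3_Ineff over MEF, and the ranges of the 2 day 3 populations overlapped. Per kilobase of exon, Timp1 was the highest member in each of the 10 libraries outside MEF, with a mean of 37.4 CPM per kb in iPSC. In MEF replicate 1 Lox led with 1015 CPM per kb before Timp1 with 670, and in MEF replicate 2 Timp1 led with 1489 before Lox with 1075. Timp2 had 68.8 and 54.0 CPM in d3_Eff and 145 and 145 CPM in d3_Ineff, against 904 and 689 CPM in MEF. Both populations lay below MEF, with log2 fold changes of -3.70 ± 0.28 in d3_Eff and -2.46 ± 0.27 in d3_Ineff. Timp3, which binds to the matrix and also blocks ADAM17, had log2 fold changes of -2.83 ± 0.35 for d3_Eff over MEF and -1.36 ± 0.33 for d3_Ineff over MEF; without d3_Ineff replicate 2 the adjusted p of the fall in d3_Ineff was 0.0901. Timp4 had no count in any library. The ratio of summed TIMP to summed MMP CPM per kb was 2.81 and 10.6 in MEF, 3.72 and 5.51 in d3_Eff, 2.80 and 3.72 in d3_Ineff, 5.07 and 4.45 in d6_Eff, 2.31 and 2.10 in d6_Ineff and 1.30 and 1.21 in iPSC. This ratio was lowest in iPSC and, at day 6, higher in d6_Eff than in d6_Ineff, while the 2 MEF libraries differed by more than any other pair. It rests largely on single genes. By group mean Timp1 held 132 of 140 TIMP CPM per kb in d6_Eff, 194 of 239 in d6_Ineff and 37.4 of 39.7 in iPSC. Timp2 and Timp3 were called lower in d6_Eff than in d6_Ineff. In iPSC Mmp11 held 17.1 of 31.6 MMP CPM per kb, and its exons overlap Chchd10 on the other strand, with 801 CPM.

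Counted together, 30 of the 52 tested members fell and 4 rose in d3_Eff relative to MEF, where 18.6% of all genes fell and 18.0% rose (36.5% called either way). In d3_Ineff 27 fell and 5 rose relative to MEF, where 15.0% of all genes fell and 15.0% rose (30.0% either way). The 2 comparisons share the MEF libraries. The median log2 fold change of the members was -2.66 in d3_Eff and -2.12 in d3_Ineff, against 0 over all genes. All 3 TIMPs fell in both, and of the lysyl oxidases 5 of 5 fell in d3_Eff and 4 of 5 in d3_Ineff. Of 9 MMPs counted here as secreted, with Mmp23 among them, 5 fell and 1 rose in each. Of 8 ADAM sheddases 6 fell in d3_Eff and 3 in d3_Ineff.

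Mmp2 (gelatinase A) and Mmp14, its membrane-bound activator, fell together. Mmp14 had 70.9 and 75.0 CPM in d3_Eff and 93.7 and 98.1 CPM in d3_Ineff, against 771 and 241 CPM in MEF. Its log2 fold change was -2.80 ± 0.41 in d3_Eff and -2.40 ± 0.40 in d3_Ineff. Mmp2 had 41.0 and 30.4 CPM in d3_Eff and 59.3 and 47.9 CPM in d3_Ineff, against 369 and 142 CPM in MEF, with log2 fold changes of -2.84 ± 0.37 in d3_Eff and -2.26 ± 0.36 in d3_Ineff. For both genes every day 3 library lay below every MEF library. Mmp19 had 4 counts or fewer in each day 3 library, against 512 and 101 counts in MEF. Adam12, a sheddase of growth factors and insulin-like growth factor binding proteins, had 0.780 and 0.780 CPM in d3_Eff and 0.787 and 0.634 CPM in d3_Ineff, against 130 and 39.4 CPM in MEF. Adamts2, which removes the amino-terminal propeptide of fibrillar procollagens, had 0.173 and 0.0520 CPM in d3_Eff and 0.525 and 1.09 CPM in d3_Ineff, against 91.6 and 24.0 CPM in MEF.

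The general sheddases moved less than these genes. Adam17, which releases TNF and EGF receptor ligands, had 71.6 and 56.5 CPM in d3_Eff and 73.0 and 67.8 CPM in d3_Ineff, against 82.8 and 42.6 CPM in MEF. The groups overlapped, and the log2 fold changes of 0.02 ± 0.27 in d3_Eff and 0.16 ± 0.27 in d3_Ineff were not called; without MEF replicate 2 they were -0.48 and -0.31. Adam10, the alpha-secretase that also cuts Notch receptors, fell by 0.67 ± 0.21 in d3_Eff on the log2 scale (adjusted p = 0.0278), but without MEF replicate 1 or d3_Eff replicate 2 its adjusted p was 0.0605 and 0.235. The Adam10 difference for d3_Ineff over MEF was -0.50 ± 0.21 (adjusted p = 0.098).

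Stromelysin 1 (Mmp3, ENSMUSG00000043613) and collagenase 3 (Mmp13), which lie in a cluster of Mmp genes on chromosome 9, had next to no reads at day 3. Mmp3 had 0 and 0 counts in d3_Eff and 0 and 2 counts in d3_Ineff, against 151 and 46 counts in MEF. With 3 counts over the group as the floor, it was at least 100.2-fold lower in d3_Eff than in MEF (adjusted p = 0.000567). At day 6 it had 19 and 9 counts in d6_Eff and 23 and 27 counts in d6_Ineff, and iPSC had none. Mmp13 had no count in the 4 day 3 libraries, against 73 and 22 counts in MEF, so that it was at least 48.2-fold lower in d3_Eff and at least 51.3-fold lower in d3_Ineff; Mmp13 was picked out after its values were seen. Its call was lost without either d3_Eff library (0.0707 and 0.0747) in d3_Eff over MEF and without either d3_Ineff library (0.0831 and 0.0811) in d3_Ineff over MEF. At day 6 Mmp13 had 21 and 0 counts in d6_Eff and 37 and 19 counts in d6_Ineff, and neither change from day 3 was called (adjusted p = 0.177 for d6_Eff and 0.115 for d6_Ineff). With d3_Eff replicate 1 left out the bounds for d3_Eff over MEF were 45.6-fold for Mmp3 and 21.9-fold for Mmp13, and without d3_Ineff replicate 1 the Mmp13 bound for d3_Ineff over MEF was 25.2-fold, since the floor rests on fewer reads. The stretches before their start sites are set here beside those of Adam23 and Mmp28, which moved the other way. They are RefSeq windows of build GRCm38.p6 from 250 bases before to 50 after the start, read on the gene's strand, and capitals mark TGACTCA (an AP-1 motif, searched on both strands) and the core promoter letters TATAAA (likewise on both strands), where present. The Mmp3 window is chr9:7445572-7445871 (plus strand), Mmp13 chr9:7272264-7272563 (plus), Adam23 chr1:63445641-63445940 (plus) and Mmp28 chr11:83462991-83463290 (minus).
Mmp3: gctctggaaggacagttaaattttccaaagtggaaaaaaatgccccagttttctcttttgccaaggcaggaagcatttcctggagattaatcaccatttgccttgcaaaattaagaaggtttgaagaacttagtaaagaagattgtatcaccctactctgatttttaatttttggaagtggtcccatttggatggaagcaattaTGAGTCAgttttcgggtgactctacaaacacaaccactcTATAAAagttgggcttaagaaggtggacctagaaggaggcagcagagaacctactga
Mmp13: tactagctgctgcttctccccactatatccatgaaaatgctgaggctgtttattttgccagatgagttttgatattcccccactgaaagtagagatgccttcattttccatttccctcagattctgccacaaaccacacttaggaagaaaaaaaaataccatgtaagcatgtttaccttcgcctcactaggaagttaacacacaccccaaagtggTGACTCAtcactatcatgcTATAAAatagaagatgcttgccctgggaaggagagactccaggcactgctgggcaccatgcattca
Adam23: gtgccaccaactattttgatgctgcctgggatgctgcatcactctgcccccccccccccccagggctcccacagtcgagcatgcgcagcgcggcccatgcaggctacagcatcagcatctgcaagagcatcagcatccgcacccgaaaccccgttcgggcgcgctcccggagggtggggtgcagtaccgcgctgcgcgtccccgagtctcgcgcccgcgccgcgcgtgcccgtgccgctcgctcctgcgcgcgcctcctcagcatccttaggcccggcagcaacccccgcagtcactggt
Mmp28: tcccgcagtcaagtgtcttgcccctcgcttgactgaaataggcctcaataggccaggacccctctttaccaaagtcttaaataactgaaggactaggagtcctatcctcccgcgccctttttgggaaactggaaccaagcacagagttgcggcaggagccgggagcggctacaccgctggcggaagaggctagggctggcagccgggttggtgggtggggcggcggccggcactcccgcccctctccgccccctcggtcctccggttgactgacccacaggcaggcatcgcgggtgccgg

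In Mmp3 the AP-1 letters begin at -46 and the TATAAA letters at -7 from the start, and in Mmp13 they begin at -35 and -16. The Adam23 and Mmp28 windows hold neither set of letters, but 31 and 20 CpG, against 1 in each of the other 2. The median was 19.5 CpG in the windows of members kept by the count filter and 7 in all windows. Mmp28 thus lay near the member median, and Mmp3 and Mmp13 lay far below it. RefSeq windows matched 43 member genes, of which 29 were kept by the count filter (32 windows). AP-1 letters lay in 4 of these 32 windows (Adam19, Mmp3, Mmp10 and Mmp13), and in 5.20% of all 32851 windows; TATAAA lay in 4 of 32, and in 13.6% of all. The GC box letters GGGCGG, searched on both strands, lay in 22 of 32 member windows and 35.7% of all. The median GC content was 65% in these member windows and 52.7% in all windows. The TEAD letters GGAATG, also on both strands, lay in 2 of 32 and 14.7% of all. These matches describe the letters only.

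Against the general fall, Adam23, Adamts7 and Mmp28 rose at day 3. Adam23 (ENSMUSG00000025964), an ADAM without protease activity that binds integrins and LGI proteins and is best known from neurons, had 391 and 336 CPM in d3_Eff and 383 and 339 CPM in d3_Ineff, against 20.6 and 12.4 CPM in MEF. All 4 day 3 libraries lay far above MEF, and the log2 fold changes were 4.44 ± 0.27 in d3_Eff (adjusted p = 7.35e-07) and 4.43 ± 0.27 in d3_Ineff (adjusted p = 1.05e-06). Adam23 had 386 and 390 CPM in d6_Eff, 574 and 690 CPM in d6_Ineff and 57.8 and 47.7 CPM in iPSC. Adamts7 (ENSMUSG00000032363), a protease of cartilage oligomeric matrix protein, had 240 and 205 CPM in d3_Eff and 303 and 217 CPM in d3_Ineff, against 22.4 and 5.17 CPM in MEF. Its log2 fold changes were 3.95 ± 0.60 in d3_Eff and 4.18 ± 0.61 in d3_Ineff, and without the second MEF library 3.20 and 3.47. By group mean per kilobase it ranked second only to Timp1 in both day 3 populations, with 35.4 CPM per kb in d3_Eff and 41.4 CPM per kb in d3_Ineff, although in d3_Ineff replicate 2 Timp2 stood above it. Tbc1d2b, which overlaps Adamts7 on the other strand, had means of 14.7 CPM in d3_Eff and 13.5 CPM in d3_Ineff, against 29.6 CPM in MEF.

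Mmp28 (ENSMUSG00000020682), or epilysin, a secreted MMP known from skin and testis, had 16.2 and 15.7 CPM in d3_Eff and 37.4 and 28.8 CPM in d3_Ineff, against 4.28 and 1.26 CPM in MEF. The groups did not overlap, with log2 fold changes of 2.40 ± 0.51 in d3_Eff and 3.45 ± 0.53 in d3_Ineff, and 1.79 and 2.88 without the second MEF library. It had 4.86 and 2.53 CPM in d6_Eff, 47.1 and 56.6 CPM in d6_Ineff and 0.215 and 0 CPM in iPSC. The gene 1700020L24Rik overlaps Mmp28 on the other strand, with means of 3.63 CPM in d3_Eff, 9.09 CPM in d3_Ineff and 0.765 CPM in MEF. Adamts17, a low gene named after its values were seen, had 3.38 and 3.28 CPM in d3_Eff and 4.59 and 3.58 CPM in d3_Ineff, against 0.310 and 0 CPM in MEF. Its log2 fold changes were 3.96 ± 0.74 in d3_Eff and 4.26 ± 0.74 in d3_Ineff. The fifth riser in d3_Ineff, Adamts15 (also named after its values were seen), had 3.02 and 2.04 CPM there against 0.568 and 0 CPM in MEF (adjusted p = 0.039); without MEF replicate 2 the adjusted p was 0.113, and the call was lost without 7 of the 12 libraries in turn.

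**Figure D4:**
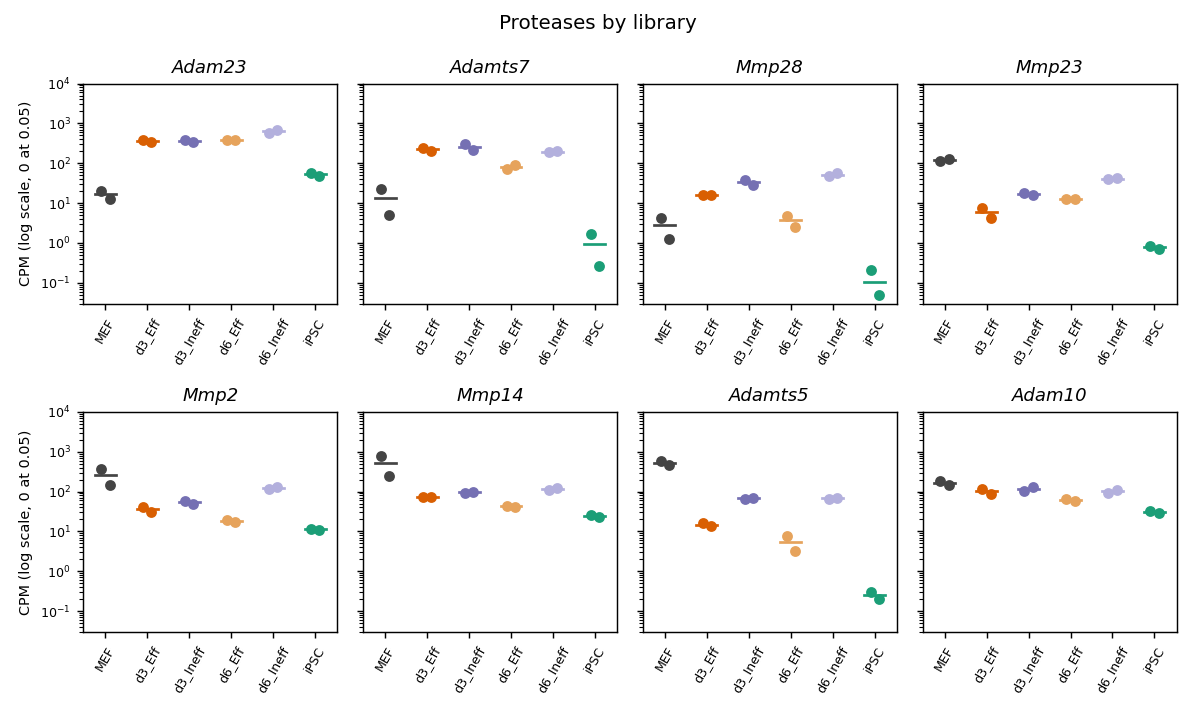
Level of 8 proteases in each library (points, CPM on a log scale, a library at 0 drawn at 0.05) with the mean of each group (lines). Adam23, Adamts7 and Mmp28 are higher in all 4 day 3 libraries than in MEF, and Mmp2, Mmp14 and Adamts5 are lower.

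The populations sorted at day 3 were compared next. Of the 52 members 2 were called in d3_Eff over d3_Ineff, both lower, where 0.240% of all genes were lower (0.400% called either way). Adamts5 (ENSMUSG00000022894), the main aggrecan-cutting protease of mouse cartilage, had 16.1 and 13.3 CPM in d3_Eff, against 66.1 and 68.6 CPM in d3_Ineff. Its log2 fold change was -2.20 ± 0.30 (adjusted p = 0.0244). Mmp23 (ENSMUSG00000029061), an MMP made as a type II membrane protein, had 7.37 and 4.26 CPM in d3_Eff, against 18.4 and 16.2 CPM in d3_Ineff, a log2 fold change of -1.57 ± 0.26 (adjusted p = 0.036). For both genes the 2 populations did not overlap. Leaving out single libraries moved these adjusted p-values to as much as 0.312 for Adamts5 and 0.329 for Mmp23, both without d3_Eff replicate 2, and the Adamts5 call was lost without any 1 of the 4 d3 and the 2 d6_Ineff libraries. The Mmp23 call was lost without any 1 of these 6, without d6_Eff replicate 1 (0.0607) or 2 (0.0622) and without iPSC replicate 1 (0.0502). The number of members called was 0 without any 1 of the d3 or d6_Ineff libraries, 1 without either d6_Eff library, 11 without MEF replicate 1 and 12 without MEF replicate 2. No member was called higher by edgeR; 2 were higher at an unadjusted p under 0.05, limma-voom called 0 and DESeq2 1.

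Several differences at day 3 did not pass the test. Timp2 had 68.8 and 54.0 CPM in d3_Eff, against 145 and 145 CPM in d3_Ineff, and Timp3 had 14.5 and 11.2 CPM in d3_Eff, against 40.8 and 30.8 CPM in d3_Ineff. The groups did not overlap for either, but the Timp3 difference of -1.48 ± 0.34 had an adjusted p of 0.103. The Loxl2 difference was -1.41 ± 0.35 (adjusted p = 0.145), that of Lox -1.07 ± 0.57, that of Loxl1 -1.59 ± 0.52, that of Loxl3 -1.07 ± 0.59 and that of Loxl4 -0.89 ± 0.50. Mmp2 differed by -0.59 ± 0.35, Mmp14 by -0.39 ± 0.38, Adam10 by -0.17 ± 0.21, Adam17 by -0.14 ± 0.27 and Timp1 by -0.04 ± 0.31 on the log2 scale. Of the 52 members 41 had a log2 fold change below 0, and the median was -0.51, against a median of 0 over all genes. The share of all genes below 0 was not counted. On simulated counts for this comparison with 16240 genes, the test recovered 21% of 2-fold and 85% of 4-fold changes. Only genes above a set expected count were changed there, so these rates do not cover members with fewer reads.

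From day 3 to day 6 the inefficient population had 1 called member, Mmp23, which rose (3.19% of all genes rose and 4.42% were called either way). It had 39.5 and 43.0 CPM in d6_Ineff, against 18.4 and 16.2 CPM in d3_Ineff, without overlap; the log2 fold change was 1.25 ± 0.25 (adjusted p = 0.0194). Without d3_Ineff replicate 1 or 2 or d6_Ineff replicate 1 or 2 the adjusted p was 0.135, 0.244, 0.103 and 0.149, and no member was called; without MEF replicate 1 or 2 there were 11 and 12 calls and without d6_Eff replicate 2 there were 2. No member was called lower by edgeR (1.23% of all genes were); 2 were lower at an unadjusted p under 0.05, and limma-voom and DESeq2 called 1 each. Mmp2 had 116 and 128 CPM in d6_Ineff, against 59.3 and 47.9 CPM in d3_Ineff, a difference of 1.19 ± 0.35 (adjusted p = 0.087). For Lox the log2 difference was 1.13 ± 0.56, and for Loxl4 -1.11 ± 0.50. The other named members, Timp1, Timp2, Timp3, Loxl1, Loxl2, Loxl3, Mmp14, Adam10 and Adam17, were not called. The median log2 fold change of the members was 0.55, against 0 over all genes.

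In the efficient population 11 members fell and 2 rose between day 3 and day 6, where 4.87% of all genes fell and 4.24% rose (9.11% either way). Loxl2 had 4.45 and 4.35 CPM in d6_Eff, against 15.6 and 13.4 CPM in d3_Eff (log2 fold change -1.72 ± 0.37, adjusted p = 0.0145). Timp3 had 4.90 and 3.29 CPM in d6_Eff, against 14.5 and 11.2 CPM in d3_Eff (-1.64 ± 0.35). Mmp28 had 4.86 and 2.53 CPM in d6_Eff, against 16.2 and 15.7 CPM in d3_Eff (-2.10 ± 0.49). In these 3 genes the days did not overlap. Adam19, a sheddase of neuregulins, had a log2 fold change of -1.87 ± 0.46, Loxl4 of -2.16 ± 0.54, and Adam10 of -0.77 ± 0.21; Timp2 was also called lower (adjusted p = 0.0323). Adamts20, a versican-cutting protease known for its role in melanoblast survival in mouse skin, had 0.0445 and 0.529 CPM in d6_Eff, against 8.15 and 5.98 CPM in d3_Eff. It was also lower in d6_Ineff, with 1.80 and 0.519 CPM, than in d3_Ineff, with 7.96 and 6.74 CPM, without overlap but not called. The 2 that rose were Mmp23, with 12.8 and 13.0 CPM in d6_Eff against 7.37 and 4.26 CPM in d3_Eff (1.14 ± 0.26), and Mmp3, at least 9.69-fold higher in d6_Eff. The Mmp3 call was lost without either d3_Eff library (0.12 and 0.105) or either d6_Eff library (0.0751 and 0.0508), and the bound was 4.41-fold without d3_Eff replicate 1. No call was made for Lox, with a log2 difference of 0.04 ± 0.58, nor for Loxl1 (-0.41 ± 0.55), Loxl3 (-1.07 ± 0.60), Timp1 (-0.29 ± 0.31), Mmp2 (-0.95 ± 0.36), Mmp14 (-0.79 ± 0.38) or Adam17 (-0.16 ± 0.27). The Adam10 call was lost without any 1 library other than the 2 of MEF, with an adjusted p of up to 0.316. Those of Loxl2, Loxl4, Timp2 and Adam19 were lost without any 1 of the d3_Eff and d6_Eff libraries, with adjusted p of up to 0.0919 for Loxl2, 0.132 for Loxl4, 0.235 for Timp2 and 0.14 for Adam19. The Timp3 call was lost without d3_Eff replicate 1 (0.0918) or d6_Eff replicate 2 (0.13), and that of Mmp28 without either d3_Eff library (0.0873 and 0.0898) or d6_Eff replicate 2 (0.179). The Adamts20 call was lost without either d3_Eff library (0.106 and 0.0771) or d6_Eff replicate 1 (0.133), and that of Mmp23 without d3_Eff replicate 2 (0.145) or either d6_Eff library (0.103 and 0.121). The count of 13 calls depended on single libraries: it was 1 without d3_Eff replicate 1, 3 without d3_Eff replicate 2, 3 without d6_Eff replicate 1, 1 without d6_Eff replicate 2 and 20 without MEF replicate 2.

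At day 6 19 members were lower and 0 higher in d6_Eff than in d6_Ineff; 9.25% of all genes were lower and 5.38% higher (14.6% either way). The fibroblast marker sum was 524 to 771 CPM in d6_Eff, against 5040 to 5350 CPM in d6_Ineff, and the pluripotency marker sum 221 to 225 CPM in d6_Eff, against 68.6 to 71.9 CPM in d6_Ineff. Most of the fibroblast sum was Vim, with a mean of 458 CPM in d6_Eff and 4101 CPM in d6_Ineff, and Pdgfra had no count in d6_Eff. Among the pluripotency markers Dppa4 had no count in either day 6 population and Dnmt3l none in d6_Ineff. Esrrb went against the sum, with means of 3.07 CPM in d6_Eff and 13.5 CPM in d6_Ineff. Tfcp2l1 was near level, with means of 17.9 CPM in d6_Eff and 17.4 CPM in d6_Ineff. The part of these markers' cells in the result was not tested. Timp2, Timp3 and all 5 lysyl oxidases were among them, as were Mmp2 and Mmp14. Timp2 (ENSMUSG00000017466) had 33.3 and 27.9 CPM in d6_Eff, against 159 and 161 CPM in d6_Ineff, and the log2 fold change was -2.38 ± 0.27 (adjusted p = 0.000287). Mmp2 (ENSMUSG00000031740) had 19.4 and 17.6 CPM in d6_Eff, against 116 and 128 CPM in d6_Ineff, a log2 fold change of -2.73 ± 0.37 (adjusted p = 0.000836). Mmp14 (ENSMUSG00000000957) had 42.5 and 42.0 CPM in d6_Eff, against 110 and 122 CPM in d6_Ineff (-1.45 ± 0.39, adjusted p = 0.029). The activator, the protease and the inhibitor that form the MMP2 activation complex were thus all lower in every d6_Eff library than in any d6_Ineff library.

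Adamts5 had the smallest adjusted p of the day 6 comparison, with 7.48 and 3.23 CPM in d6_Eff against 66.5 and 69.5 CPM in d6_Ineff (log2 fold change -3.65 ± 0.33, adjusted p = 9.52e-05). The log2 fold change was -3.80 ± 0.52 for Mmp28, -3.18 ± 0.37 for Timp3 and -2.75 ± 0.38 for Loxl2. The other lysyl oxidases had log2 fold changes of -2.17 ± 0.58 for Lox, -2.14 ± 0.53 for Loxl1, -2.14 ± 0.61 for Loxl3 and -1.94 ± 0.54 for Loxl4, with adjusted p from 0.0209 for Loxl1 to 0.039 for Loxl3. Adam10 fell by 0.72 ± 0.21 (adjusted p = 0.043), while Timp1 (-0.55 ± 0.31) and Adam17 (-0.35 ± 0.27) were not called. The overlapping gene 1700020L24Rik had means of 0.616 CPM in d6_Eff and 10.2 CPM in d6_Ineff, beside the Mmp28 values. No member was higher in d6_Eff by edgeR, limma-voom or DESeq2, and none at an unadjusted p under 0.05. The count of 19 was 29 without MEF replicate 2, 11 without d6_Ineff replicate 1, 9 without d6_Ineff replicate 2, 11 without d6_Eff replicate 1 and 8 without d6_Eff replicate 2. Lox lost its call without MEF replicate 1 (0.0821), MEF replicate 2 (0.0801), d6_Ineff replicate 1 (0.0951), d6_Ineff replicate 2 (0.0935) or d6_Eff replicate 2 (0.213), and without d6_Eff replicate 2 the adjusted p was 0.235 for Adam10, 0.12 for Loxl1, 0.213 for Loxl3, 0.133 for Loxl4 and 0.135 for Mmp14. The Loxl1 call was also lost without d6_Ineff replicate 2 (0.108). The calls of Mmp14, Loxl3, Loxl4 and Adam10 were lost as well without either d6_Ineff library or d6_Eff replicate 1, those of Loxl3 without either d3_Eff library, of Loxl4 without d3_Eff replicate 2, and of Adam10 without either d3_Ineff or either iPSC library.

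Whether the gap between the efficient and inefficient populations widened from day 3 to day 6 was tested as a difference of differences. edgeR called 0 of 52 members, where 1.39% of all genes were called; at an unadjusted p under 0.05, 9 members had a wider gap below d6_Ineff and 1 the opposite, limma-voom called 1 and DESeq2 7. The estimate for Mmp2 was -2.14 ± 0.50 (adjusted p = 0.072), that for Timp3 -1.70 ± 0.48 (adjusted p = 0.134), that for Timp2 -1.14 and that for Loxl2 -1.34 ± 0.51. Without MEF replicate 1 or MEF replicate 2, 10 members were called, and without d6_Eff replicate 1, 1. In the fit without MEF replicate 2 these were Adam19, Adam23, Adamts5, Adamts12, Loxl2, Mmp2, Mmp14, Mmp28, Timp2 and Timp3, all with a wider gap at day 6; they are named after their values were seen.

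In iPSC 19 members were lower and 7 higher than in d6_Eff, where 15.9% of all genes were lower and 13.6% higher (29.6% either way). Of the day 3 risers, Adam23, Adamts7 and Mmp28 were among the lower ones, while Adamts17 (adjusted p = 0.0703) and Adamts15 (adjusted p = 0.896) were not called. Adamts7 had 1.63 and 0.264 CPM in iPSC, against 72.4 and 89.4 CPM in d6_Eff (log2 fold change -6.29 ± 0.71), and Adam23 fell by 2.88 ± 0.25. Mmp23 had 0.860 and 0.725 CPM in iPSC, against 12.8 and 13.0 CPM in d6_Eff (adjusted p = 4.64e-06). No iPSC library reached a d6_Eff library in Adamts7, Adam23 or Mmp23. Adamts3, a procollagen N-proteinase that also acts on VEGF-C, had 0.344 and 0.857 CPM in iPSC, against 7.39 and 8.52 CPM in d6_Eff (-3.77 ± 0.56), and Adamts1 had 0.817 and 0.988 CPM in iPSC, against 7.48 and 6.34 CPM in d6_Eff (-2.95 ± 0.54). The log2 fold change was -4.68 ± 0.84 for Loxl3, -3.80 ± 0.76 for Lox, -2.38 ± 0.65 for Loxl4, -2.03 ± 0.27 for Timp2 and -1.82 ± 0.32 for Timp1, all called, and Adam10 was lower as well (adjusted p = 0.00456). Without iPSC replicate 1, iPSC replicate 2 or d6_Eff replicate 2 the adjusted p of the Loxl4 fall was 0.114, 0.0681 and 0.0561, and without iPSC replicate 2 that of Adam10 was 0.0591.

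The members higher in iPSC included genes that MEF also expressed. Loxl2 rose by 3.10 ± 0.38 on the log2 scale in iPSC relative to d6_Eff (adjusted p = 0.000121). Adam19 had 41.8 and 41.2 CPM in iPSC, against 6.90 and 6.87 CPM in d6_Eff (2.59 ± 0.47). Adamts9, a versican-cutting protease, had 14.3 and 15.6 CPM in iPSC, against 0.312 and 0.117 CPM in d6_Eff (6.03 ± 1.20). Adamts14, a procollagen N-proteinase like Adamts2, had 10.9 and 9.36 CPM in iPSC, against 0.445 and 0.411 CPM in d6_Eff (4.54 ± 0.76). In these 4 genes the groups did not overlap. Mmp17, an MMP held to the membrane by a lipid anchor, had 18.7 and 19.9 CPM in iPSC, against 5.08 and 4.64 CPM in d6_Eff (1.99 ± 0.41). Mmp11, or stromelysin 3, had 48.0 and 46.9 CPM in iPSC, against 18.0 and 24.6 CPM in d6_Eff (1.16 ± 0.38, adjusted p = 0.0385). The Mmp11 call was lost without d3_Eff replicate 2 (0.0586), either d6_Eff library (0.181 and 0.0727) or either iPSC library (0.13 and 0.119), and its opposite-strand neighbour Chchd10 had means of 801 CPM in iPSC and 187 CPM in d6_Eff. The seventh, Adamts8 (named after its values were seen), had 1.29 and 2.96 CPM in iPSC and no count in d6_Eff, at least 28.0-fold higher in iPSC. The Adamts8 call was lost without either d6_Eff library (0.13 and 0.121) or either iPSC library (0.0726 and 0.133), and the bound was 12.1-fold without d6_Eff replicate 1. Loxl1 (1.52 ± 0.54), Timp3 (-0.08 ± 0.36), Mmp2 (-0.72 ± 0.36), Mmp14 (-0.82 ± 0.39) and Adam17 (-0.62 ± 0.27) were not called.

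From end to end, 33 members were lower and 4 higher in iPSC than in MEF, where 26.7% of all genes were lower and 26.0% higher (52.7% either way). The median log2 fold change of the 52 was -4.09, or -3.28 with the members that had no count in 1 group set at their bound, against 0.04 over all genes. Among the lysyl oxidases Lox fell by 13.48 ± 0.93 on the log2 scale, before Loxl3 (-9.34 ± 0.90), Loxl1 (-6.63 ± 0.59), Loxl4 (-6.49 ± 0.67) and Loxl2 (-4.39 ± 0.39). Adamts5 had 0.301 and 0.198 CPM in iPSC, against 581 and 476 CPM in MEF (-10.96 ± 0.48, adjusted p = 4.14e-08). Several members had no count in iPSC: Adam12 was at least 1087-fold lower than in MEF, Adamts12 at least 422-fold, Mmp3 at least 91.1-fold and Mmp13 at least 43.8-fold. Without MEF replicate 1 the bound was 505-fold for Adam12 and 168-fold for Adamts12, and without iPSC replicate 1 it was 429-fold for Adam12, 167-fold for Adamts12, 36.0-fold for Mmp3 and 17.3-fold for Mmp13, whose adjusted p was then 0.0625. The log2 fold change was -6.73 ± 0.33 for Timp2, -4.85 ± 0.36 for Timp1, -4.56 ± 0.39 for Timp3, -4.51 ± 0.40 for Mmp2, -4.40 ± 0.44 for Mmp14 and -2.44 ± 0.22 for Adam10, all called. Adam17 fell by 0.75 ± 0.27 (adjusted p = 0.0362), a call lost without MEF replicate 1 (0.481), iPSC replicate 1 (0.122) or iPSC replicate 2 (0.15).

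The 4 members higher in iPSC than in MEF were Adam23, Mmp15, Mmp17 and Adamts17. Adam23 had 57.8 and 47.7 CPM in iPSC, against 20.6 and 12.4 CPM in MEF (1.65 ± 0.24, adjusted p = 0.000166). Mmp15, a membrane-type MMP, had 11.4 and 11.3 CPM in iPSC, against 4.75 and 1.54 CPM in MEF (1.78 ± 0.49), and Mmp17 had 18.7 and 19.9 CPM in iPSC, against 10.1 and 5.03 CPM in MEF (1.33 ± 0.40). All iPSC libraries lay above all MEF libraries for these genes. Without MEF replicate 2 the Mmp17 value was 0.88 with an adjusted p of 0.092, without iPSC replicate 1 or 2 its adjusted p was 0.063 and 0.0814, and Adamts17 had an adjusted p of 0.063 without MEF replicate 2, 0.0531 without iPSC replicate 1 and 0.0558 without iPSC replicate 2.

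**Figure D5:**
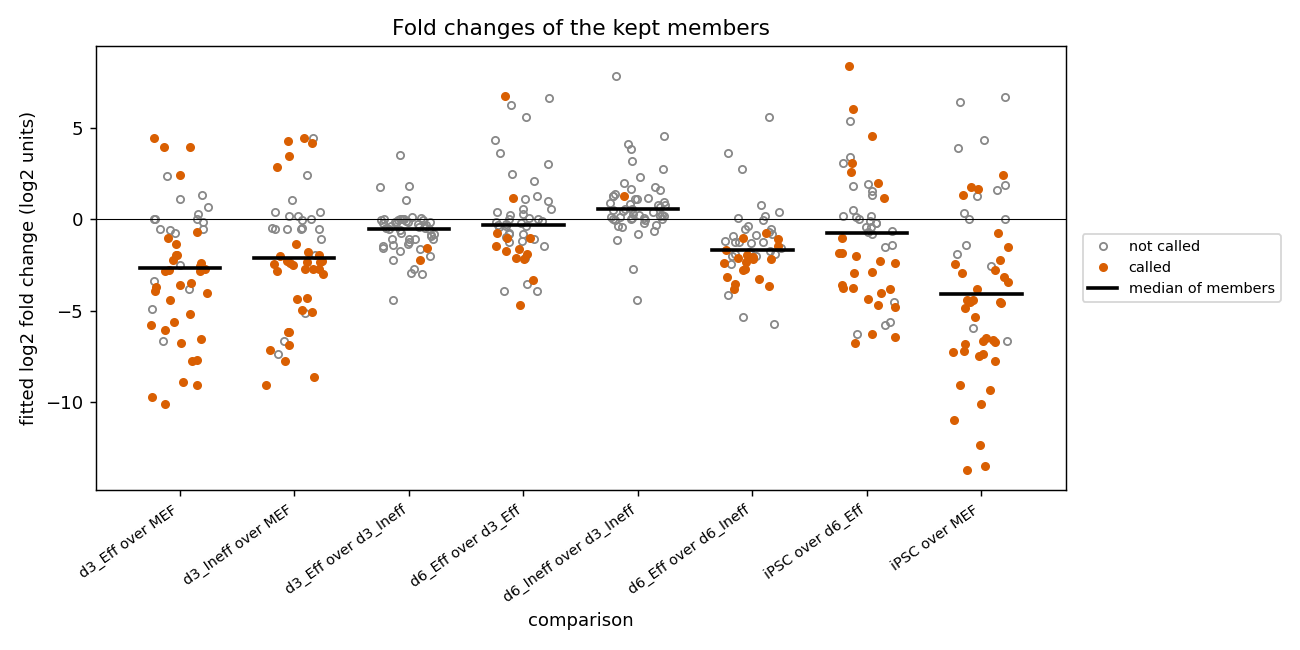
Fitted log2 fold change of each of the 52 members in 8 comparisons, with members called at an adjusted p under 0.05 filled and the median of the members as a black line; values of members with no count in 1 group depend on the prior count. The median runs from 0.55 in d6_Ineff over d3_Ineff to -4.09 in iPSC over MEF, and no filled point lies above 0 in d6_Eff over d6_Ineff.

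Genes that act with these enzymes were read from a list of 44, of which 41 were tested. In d3_Eff relative to MEF 28 fell and 4 rose, where 18.6% of all genes fell and 18.0% rose, and in d3_Ineff 25 fell and 4 rose, where 15.0% of all genes fell and 15.0% rose. Pcolce2, an enhancer of procollagen C-proteinase, rose by 1.58 ± 0.21 in d3_Eff and by 1.63 ± 0.21 in d3_Ineff relative to MEF. In d6_Eff relative to d6_Ineff 20 partners were lower and 0 higher, where 9.25% of all genes were lower and 5.38% higher. Pcolce averaged 16.1 ± 10.3 CPM in d6_Eff and 127 ± 0.90 CPM in d6_Ineff, and Fbln5, a scaffold that brings lysyl oxidases to elastin, averaged 19.7 ± 12.3 CPM in d6_Eff and 155 ± 10.3 CPM in d6_Ineff (SD, n = 2 each). In iPSC relative to MEF 34 partners were lower and 4 higher, where 26.7% of all genes were lower and 26.0% higher. Serpinh1, the collagen chaperone, averaged 115 ± 3.92 CPM in iPSC and 3984 ± 23.1 CPM in MEF, and Pcsk6, a proprotein convertase that activates metalloproteinase precursors, rose by 2.84 ± 0.53 on the log2 scale.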

How the data were processed

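The authors deposited 1 table of raw read counts per Ensembl gene for each of the 12 libraries, made with STAR 2.3.0, Picard 1.100 and HTSeq 0.6.0 on build mm9, per the submitters' processing notes; per the labels' protocols, libraries were poly-A selected with a directional kit. The deposited counts ignore strand, per the file names, and no annotation release was found in these sources. Symbols and exon lengths came from GENCODE M21. The 5 summary lines of each table (reads outside genes, ambiguous, low quality, not aligned, not unique) stayed out of library sizes and tests. Genes were filtered with filterByExpr on group (16240 kept), scaled by TMM and tested in 1 edgeR 4.0.16 quasi-likelihood fit over all 12 libraries (R 4.3.3), with Benjamini-Hochberg adjustment over all genes and calls at an adjusted p under 0.05. All 6 groups shared 1 estimate of the spread (6 residual degrees of freedom); an SE is the log2 fold change divided by the root of F. Bounds use a floor of 3 counts over a group, covering counting error only.

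The members and lists were chosen with earlier results of these data known. Named in each comparison were the TIMPs, the lysyl oxidases, Mmp2, Mmp14, Adam10 and Adam17, plus, in each direction, the 6 called members at most with the greatest log2 fold change, at 5 CPM or more in each library of the higher group and without overlap. Up to 3 partners per direction were named by adjusted p. Alternatives were DESeq2 1.42.0, limma-voom (limma 3.58.1), other scalings and filters, a replicate block, fits on the groups compared and leaving out each library. The fits were tested on simulated data. One result on a partner gene is not reported here.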

Additional observations from a re-analysis of the deposited data

How the results depend on the processing

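Of 3108 log2 fold changes of named members recomputed under the alternatives, 2804 kept their direction and side of the threshold, 140 lost a call, 121 gained one and 43 changed sign. Leaving out 1 library gave 22 to 35 members called in d3_Ineff over MEF, 29 to 39 in d3_Eff over MEF, 0 to 12 in d3_Eff over d3_Ineff, 0 to 12 in d6_Ineff over d3_Ineff, 1 to 20 in d6_Eff over d3_Eff, 8 to 29 in d6_Eff over d6_Ineff, 19 to 33 in iPSC over d6_Eff, 30 to 39 in iPSC over MEF, 0 to 10 in the difference of the day 6 and day 3 gaps and 39 to 46 for any difference. In d3_Eff over d3_Ineff the count of 2 was 1 with count totals alone, 13 with no filter on low counts, 7 with DESeq2 and 14 with only the groups compared; in d6_Ineff over d3_Ineff the count of 1 was 2 with DESeq2's size factors, 14 with no filter, 10 with DESeq2, 7 with limma-voom and 14 with only the groups compared. In d6_Eff over d3_Eff the count of 13 was 7 with count totals alone and 20 with no filter, and for the difference of gaps the count of 0 was 9 with no filter, 7 with DESeq2, 1 with limma-voom and 12 with only the groups compared. Leaving out MEF replicate 2 and d6_Eff replicate 2 together, chosen after seeing the data, gave 13 calls in d3_Eff over d3_Ineff, 13 in d6_Ineff over d3_Ineff and 8 for the difference of gaps. The fits with fewer libraries or genes estimate the spread from those alone; beyond that, the cause was not tested. Whether equal replicate numbers pair samples could not be settled. Same-number correlations ran from -0.10 to 0.21 over 15 pairs of groups. The 2 above 0.1 were MEF with d3_Ineff (0.213) and MEF with d3_Eff (0.166), and low values cannot show that samples were unpaired. With the replicate block 2 members were called in d6_Ineff over d3_Ineff and 2 for the difference of gaps, and no other count moved by over 1.5 times. The sign changes were all of values not called in the reported fit. Without 1 library in turn, the log2 fold change ran from -1.81 to 0.37 for Loxl4 and -0.31 to 0.74 for Adam17 in d3_Ineff over MEF, and from -0.48 to 0.60 for Adam17 in d3_Eff over MEF. In d3_Eff over d3_Ineff it ran from -0.28 to 0.11 for Timp1, -0.46 to 0.0336 for Adam10 and -0.38 to 0.025 for Adam17. In d6_Ineff over d3_Ineff it ran from -0.31 to 0.34 for Timp3, -0.19 to 0.38 for Loxl1, -0.11 to 0.0931 for Loxl3 and -0.063 to 0.14 for Adam17. In d6_Eff over d3_Eff it ran from -0.98 to 1.47 for Lox, -1.75 to 0.18 for Loxl1 and -0.32 to 0.0035 for Adam17; in iPSC over d6_Eff from -0.34 to 0.28 for Timp3; and in the difference of gaps from -2.10 to 0.35 for Lox and -1.87 to 0.0474 for Loxl1. Adam17 in d3_Eff over MEF was -0.0435 with DESeq2's size factors, -0.0443 with DESeq2, -0.0183 with only the groups compared and -0.37 without the 2 libraries, which also gave -0.24 for Adam17 in d3_Ineff over MEF, 0.19 for Loxl1 in d6_Eff over d3_Eff and 0.0498 for Loxl1 in the difference of gaps. Loxl3 in d6_Ineff over d3_Ineff was -0.0014 with limma-voom. Depth limited members under 1 CPM, where a group of 2 libraries holds few reads, and with 2 libraries a group most 2-fold changes are missed in simulated data.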

Other observations

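The members without a test were 24. Of these, 15 had no count in any of the 12 libraries: Timp4, Adam7, Adam18, Adam20, Adam24, Adam25, Adam28, Adam29, Adam30, Adam34, Adam39, Mmp7, Mmp8, Mmp20 and Mmp27. Many of these ADAM genes are known from sperm and testis, Mmp7 from glandular epithelium, Mmp8 from neutrophils and Mmp20 from tooth enamel. The other 9 had few counts: 93 over all libraries for Adamts16, 30 for Adam21, 18 for Mmp21, 14 for Adam2, 9 for Adam3, 5 for Adamts18, 4 for Mmp12, 3 for Adam32 and 1 for Adamts13. Adamts16 had 81 of its 93 counts in a single library.

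Some members are neighbours in the genome. Adamts1 and Adamts5 lie next to each other on chromosome 16, and both had their highest levels in MEF. Adamts1, which cuts versican and aggrecan, had 7.48 and 6.34 CPM in d6_Eff, 22.3 and 36.3 CPM in d6_Ineff and 289 and 95.2 CPM in MEF. On chromosome 8, Adam9, a widely expressed sheddase, had 34.2 and 34.6 CPM in d6_Eff and 69.4 and 74.3 CPM in d6_Ineff. Its neighbour Adam32 had counts in 1 library only and was not tested, so their courses cannot be compared. On the other strand, 16 of the 52 tested members overlap an annotated gene with their exons, and for 11 of them that gene was itself tested.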
